A study of Homo sapiens with 8 samples.

Results

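The STAT family (signal transducers and activators of transcription) was followed through all 8 libraries of a study of RD-ES cells exposed to interferon alpha, to the induced oncogene USP6, or to both. Its members were taken by gene symbol from the deposited count table: STAT2, STAT3, STAT4, STAT5A, STAT5B and STAT6, which are 6 of 22257 symbols. They held 14 transcript rows, and the row with the highest total stood for each gene. All 6 passed the filter on low counts. STAT4 and STAT5A lay near that filter, at a mean of 0.70 and 1.58 CPM (read counts scaled to a common library size) in untreated cells.

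RD-ES is a Ewing sarcoma cell line. Every library came from a pool of RD-ES cells, not a single clone, that carried a stably introduced USP6 gene under a doxycycline-controlled promoter, so the untreated cells carried the transgene too. USP6, an oncogene, encodes an enzyme that removes ubiquitin from other proteins. The groups, each of 2 libraries, were untreated cells, cells given interferon alpha alone at 1000 U/mL for 24 h, cells given doxycycline alone, and cells given doxycycline for 24 h and then interferon alpha for 24 h, called both treatments below. How long the cells on doxycycline alone were kept on it is not stated, so exposure may differ between that group and cells given both. Cells without the transgene that received doxycycline were not analysed here, and effects of the drug and of USP6 cannot be told apart. Nothing in the labels states whether the 2 libraries of a group came from different cultures. The p-values therefore measure only the spread between these libraries, which may be technical.

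STAT proteins wait in the cytoplasm until a Janus kinase (JAK), bound to an activated cytokine receptor, phosphorylates them. They then pair, enter the nucleus and switch on genes. Type I interferons such as interferon alpha act through the receptor subunits IFNAR1 and IFNAR2 and the kinases JAK1 and TYK2, and their main nuclear product holds STAT2 and the DNA-binding partner IRF9 (the complex ISGF3). ISGF3 binds an interferon-stimulated response element (ISRE), whereas paired STATs bind a shorter palindrome, the gamma-activated site (GAS). STAT3 answers cytokines of the interleukin 6 family, STAT4 interleukin 12, STAT5A and STAT5B growth hormone, prolactin and several interleukins, and STAT6 interleukins 4 and 13. A gene for a STAT can itself be transcribed more or less, and that RNA level, not phosphorylation, is what these libraries measured.

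The libraries held 9304569 to 11984196 reads over the rows used, and 3 reads in a library equal 0.25 to 0.326 CPM. USP6 itself stood at 9.88 and 8.77 CPM in untreated cells, 9.17 and 10.3 with interferon, 569 and 558 once doxycycline was given, and 409 and 377 under both, matching the labels. It was thus lower with both treatments than with doxycycline alone (log2 fold change -0.52 ± 0.08 SE, adjusted p = 0.0044, edgeR quasi-likelihood test). All 10 Ewing sarcoma markers checked had a mean of at least 1 CPM (CD99 was low, at 2.50 CPM in untreated cells), against 3 of 10 leukocyte markers and 0 of 5 endothelial markers. All 5 fibroblast markers also reached it, at a summed 80.8 to 112 CPM. The libraries differed in how counts followed GC content (rank correlation across genes from -0.64 in the first library with both treatments to 0.58 in the first untreated library). Where a correction for this changed a call or a list count in the passages that follow, the corrected value is given.

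The DNA letters that bear on the family are shown first. The part of the upstream window of STAT2 that no annotated exon covers, 202 of its 250 bases, on the minus strand at chr12:56360156-56360357 (GRCh38.p14, RefSeq), is given because STAT2 had the strongest response of the 6 genes to interferon. The whole window holds neither core motif searched, so no letters are in capitals. The other entries are motif sites, in capitals with their flanks. They are of IRF9 (GAS core, chr14:24161192-24161220, plus strand) and of ERAP2 (ISRE core, chr5:96876460-96876489, plus strand). Outside the STAT family, the pattern of ERAP2 over the libraries was nearest to that of STAT2. The last are of ISG15 (ISRE core, chr1:1013380-1013409, plus strand) and IFIT1 (ISRE core read on the opposite strand, chr10:89392510-89392539, plus strand), which are textbook ISGF3 targets.
STAT2: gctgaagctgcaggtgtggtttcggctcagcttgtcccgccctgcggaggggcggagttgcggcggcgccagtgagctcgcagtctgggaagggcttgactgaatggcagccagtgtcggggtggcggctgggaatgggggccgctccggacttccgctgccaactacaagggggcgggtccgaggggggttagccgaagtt
IRF9: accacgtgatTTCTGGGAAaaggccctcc
ERAP2: tcttagaacaGAAAGTGAAAgcaaaagtaa
ISG15: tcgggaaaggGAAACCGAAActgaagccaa
IFIT1: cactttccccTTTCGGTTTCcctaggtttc

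Motifs were searched on both strands in the 250 bases before each RefSeq start. The ISRE core, written GAAANNGAAA, was found in 3.02% of 35116 such windows, and the GAS core, written TTCNNNGAA, in 6.57%. Neither was found in a window of any of the 6 STAT genes, which says only that these letters are not in these windows. Of 19 listed ISGF3 targets that had a window, 14 held the ISRE core and 6 the GAS core.

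STAT5A and STAT5B are neighbouring genes on chromosome 17 whose coding sequences are close copies, and their first 60 coding bases are shown because the reads of both genes are compared later. This stretch is more divergent than the rest of coding bases 1 to 992, over which the 2 transcripts differ at 75 positions, or 7.56%. That span ends with their longest identical run, and differences after it were not counted. Capitals mark the 15 positions that differ in these GENCODE transcripts.
STAT5A: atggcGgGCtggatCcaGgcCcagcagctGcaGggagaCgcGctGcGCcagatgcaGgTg
STAT5B: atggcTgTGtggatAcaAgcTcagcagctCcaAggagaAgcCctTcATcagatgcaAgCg

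From coding base 564 on, the same 2 transcripts run identically for 429 bases. Of all runs of 50 bases, 11.92% of those in STAT5A and 10.03% of those in STAT5B occur in both genes. A read from such a stretch can belong to either gene, and how the authors' counting placed it is not given in the sources used here. STAT2, STAT4 and STAT6 shared no run of 50 bases with another gene, and STAT3 shared 1.34% of its runs.

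In untreated cells the 6 genes fell into 3 tiers, compared as CPM per kilobase of transcript (n = 2, mean ± SD). STAT2 (35.2 ± 6.18), STAT3 (30.2 ± 0.26) and STAT6 (27.4 ± 5.82 CPM per kilobase) formed the upper tier. STAT3 and STAT6 overlapped. The lower untreated library of STAT2, at 30.8, stood just above the higher one of STAT3, at 30.3, and the difference of their means was smaller than the SD of STAT2. STAT5B stood alone below them at 9.94 ± 1.18 CPM per kilobase. STAT5A (0.37 ± 0.14) and STAT4 (0.25 ± 0.17) formed the lowest tier and overlapped.

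With both treatments that order was STAT2 (238 ± 0.24), STAT3 (43.2 ± 0.41), STAT6 (42.1 ± 6.33), STAT5B (9.79 ± 1.56), STAT5A (1.74 ± 0.37) and STAT4 (0.64 ± 0.31 CPM per kilobase). STAT3 and STAT6 again overlapped, while STAT5A and STAT4 now did not. STAT2 alone accounted for 35.1% and 32.8% of the summed level per kilobase of the 6 genes in untreated cells, and for 68.2% and 67.5% with interferon. On doxycycline alone its share was 44.0% and 43.7%, and with both treatments it was 72.3% and 69.7%. The summed level was 113 and 93.9 CPM per kilobase in untreated cells, 271 and 241 with interferon, 144 and 147 with doxycycline, and 330 and 341 when both were given.

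**Figure D1:**
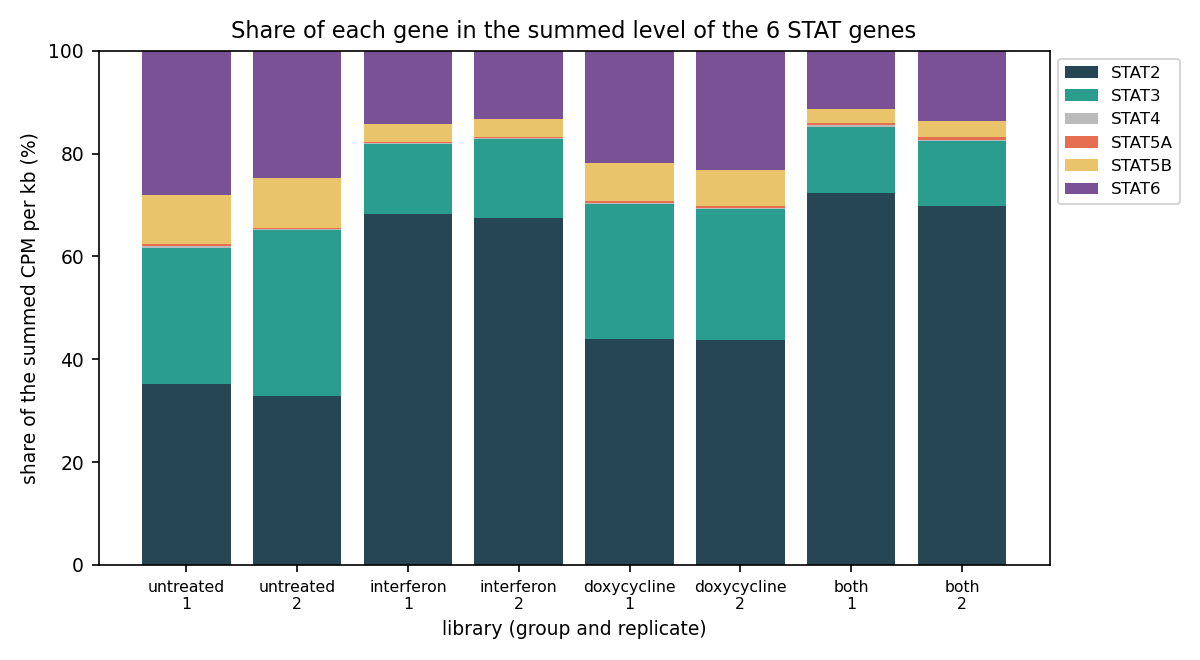
Share of each gene (stacked colours, percent) in the summed CPM per kilobase of the 6 STAT genes, 1 bar per library. STAT2 fills 32.8% to 35.1% of the untreated bars and 67.5% to 72.3% of the bars of libraries given interferon, with or without doxycycline.

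STAT2, the STAT of the interferon alpha complex ISGF3, rose with interferon and with doxycycline alone. Its level was 129 and 100.4 CPM in untreated cells, 603 and 530 CPM with interferon, 206 and 209 CPM with doxycycline, and 777 and 776 CPM with both treatments. All 4 groups were separate, in the order untreated, doxycycline, interferon and both. With interferon STAT2 was 4.95-fold higher than in untreated cells (log2 fold change 2.31 ± 0.12 SE, 95% interval 2.04 to 2.57, adjusted p = 3e-07), by edgeR's quasi-likelihood test adjusted over 14601 genes. In bulk RNA such as this, more cells responding and more RNA per cell cannot be told apart.

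STAT2 was the only one of the 6 genes called with interferon alone, where 2.12% of all genes tested were called (adjusted p under 0.05). Doxycycline alone raised STAT2 by 1.81-fold (log2 0.85 ± 0.12, 95% interval 0.60 to 1.11, adjusted p = 0.0042), again as the only member called, beside 0.815% of all genes. In cells already on doxycycline, interferon raised it by 3.75-fold (log2 1.91 ± 0.12, adjusted p = 1.3e-06). These STAT2 calls held under each of the 19 alternative settings, the one with doxycycline alone by the least margin. Its log2 change was 0.67 without untreated replicate 2, and its edgeR adjusted p was 0.025 with only the groups compared. With a correction for GC content and length the log2 changes of these STAT2 calls were 2.24, 0.82 and 1.88 in the order given.

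Doxycycline on top of interferon left STAT2 1.37-fold higher than interferon alone (log2 0.45 ± 0.11, 95% interval 0.21 to 0.70), which missed the threshold (adjusted p = 0.093). This one depended on the setting. It passed under 7 of 19 alternatives, among them DESeq2 (adjusted p = 0.0065), the GC and length correction (0.0088) and the fits without either untreated library (0.041 and 0.046). The interaction, that is the interferon response with doxycycline minus that without, was -0.40 ± 0.16 for STAT2 (95% interval -0.76 to -0.04, adjusted p = 1 by edgeR).

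Within a library, STAT2 can be set against another member, which removes library size from the comparison. Per STAT3 read there were 0.851 and 0.655 STAT2 reads in untreated cells, 3.21 and 2.82 with interferon, 1.09 and 1.11 on doxycycline, and 3.59 and 3.53 with both treatments. The 4 groups did not overlap in this ratio. Per STAT6 read the values were 1.01 and 1.07, 3.84 and 4.08, 1.62 and 1.52, and 5.12 and 4.13 in the same order, again without overlap.

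**Figure D2:**
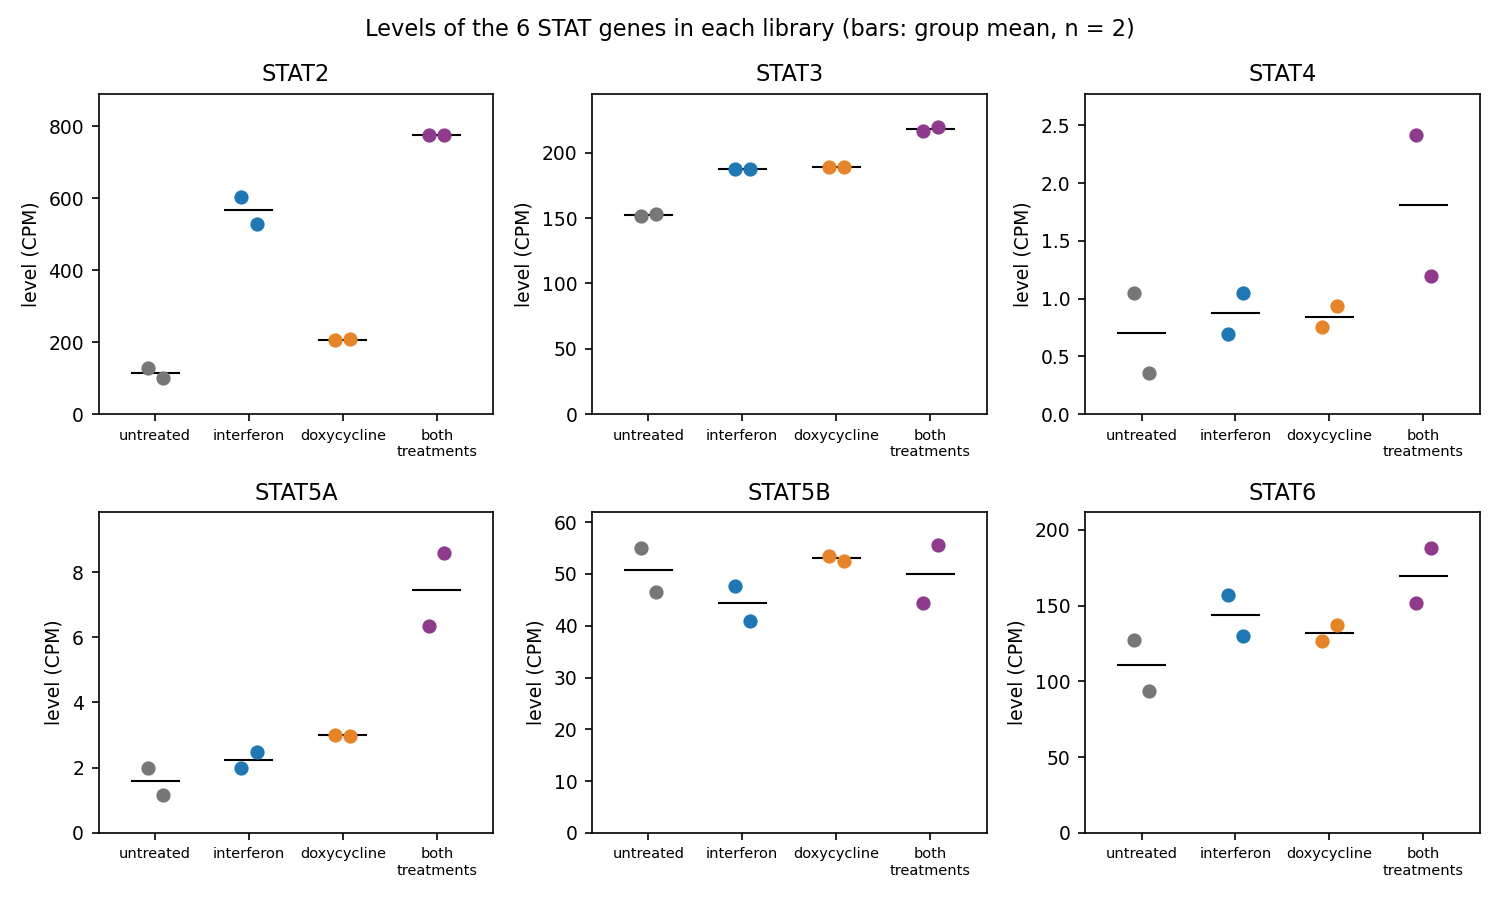
Level of each STAT gene (CPM, linear axes starting at 0, 1 panel per gene with its own scale) in each library, with points for the 2 libraries of a group and a bar at their mean. STAT2 climbs from 100.4 to 129 CPM in untreated cells to 776 to 777 CPM with both treatments, STAT5A stands apart with both treatments at 6.35 and 8.58 CPM, and STAT5B stays between 40.9 and 55.6 CPM.

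Among tested genes outside the STAT family, those whose pattern over the 8 libraries was nearest to that of STAT2 were ERAP2, PARP12, IFI16, TLR3 and SP110. Likeness was measured as the root mean square difference of centred log2 CPM, which ran from 0.129 for ERAP2 to 0.174 for SP110, while STAT2 itself spanned 2.95 on that scale. ERAP2 is an aminopeptidase that trims peptides for antigen presentation, and TLR3 is a sensor of double-stranded RNA. With interferon alone, ERAP2 was 2.54 and TLR3 2.36 log2 units higher, and with doxycycline alone they were 0.88 and 1.02 higher. Of the 5 genes, ERAP2 and PARP12 held the ISRE core in an upstream window and TLR3 and SP110 the GAS core. Correlations with STAT2 over the libraries were 0.988 to 0.996, given as a description since the genes share libraries and treatments. The genes were picked for their likeness to STAT2, so similar changes and high correlations follow from the choice.

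STAT3, the transducer of interleukin 6 type cytokines, moved by a small amount with a small spread. It stood at 151 and 153 CPM in untreated cells, 188 and 188 CPM with interferon, 189 and 189 CPM with doxycycline, and 217 and 220 CPM with both treatments. The untreated libraries were below all others and those with both treatments above all others, while the single treatments lay close together between them. With interferon alone STAT3 was 1.23-fold higher (log2 0.30 ± 0.08, 95% interval 0.13 to 0.47) and missed the threshold (adjusted p = 0.085). With doxycycline alone it was 1.24-fold higher (log2 0.31 ± 0.08, adjusted p = 0.11). After correction for GC content and length both passed, at log2 0.26 (adjusted p = 0.018 with interferon and 0.027 with doxycycline). Both treatments together raised STAT3 by 1.43-fold over untreated cells (log2 0.52 ± 0.08, 95% interval 0.35 to 0.69, adjusted p = 0.0013), a call kept under all 19 alternatives.

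STAT6, the transducer of interleukins 4 and 13, had a wider spread. Its level was 127 and 93.9 CPM in untreated cells, 157 and 130.0 CPM with interferon, 127 and 137 CPM with doxycycline, and 152 and 188 CPM with both treatments. Only the untreated and interferon groups, the untreated and both groups, and the doxycycline and both groups were free of overlap. Neither interferon (log2 0.38 ± 0.15, adjusted p = 0.35) nor doxycycline (0.26 ± 0.15, adjusted p = 0.48) alone gave a call. Both treatments raised STAT6 by 1.54-fold over untreated cells (log2 0.62 ± 0.15, 95% interval 0.28 to 0.96, adjusted p = 0.023). That call was lost without the second untreated library (log2 0.42, adjusted p = 0.13) and without the second library given both treatments (0.46, adjusted p = 0.093). With the GC and length correction STAT6 passed with interferon alone too (log2 0.38, adjusted p = 0.021), and with interferon added to doxycycline (0.39, adjusted p = 0.012, against 0.36 ± 0.15 and adjusted p = 0.27 without the correction).

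STAT5A and STAT5B, the transducers of growth hormone and prolactin signals, parted ways. STAT5A was at 1.99 and 1.16 CPM in untreated cells, 1.99 and 2.49 CPM with interferon, 3.003 and 2.975 CPM with doxycycline, and 6.35 and 8.58 CPM with both treatments. Both libraries with both treatments were above the other 6, and those with doxycycline above those without. The values rest on few reads, 13 to 36 per library outside the group given both treatments and 63 and 79 within it.

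Neither treatment alone gave a STAT5A call: the log2 change was 0.51 ± 0.35 with interferon (adjusted p = 0.63) and 0.92 ± 0.33 with doxycycline (adjusted p = 0.26). Interferon in doxycycline-treated cells raised it by 2.49-fold (log2 1.31 ± 0.27, 95% interval 0.71 to 1.92, adjusted p = 0.022). STAT2 and STAT5A were the 2 of 6 members called there, beside 3.33% of all genes. Under DESeq2 (adjusted p = 0.085), the replicate block (0.055) and the fits without doxycycline replicate 1 (0.12), doxycycline replicate 2 (0.15) or replicate 2 of both treatments (0.11), STAT5A lost that call.

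Doxycycline on top of interferon raised STAT5A by 3.31-fold over interferon alone (log2 1.73 ± 0.29, 95% interval 1.09 to 2.37, adjusted p = 0.016), where it was the only one of the 6 genes called and 1.34% of all genes were. The call was lost without interferon replicate 1 (adjusted p = 0.18), interferon replicate 2 (0.17) or replicate 2 of both treatments (0.061), with log2 values between 1.49 and 1.93 over the fits that left a library out. Against untreated cells, both treatments raised STAT5A by 4.72-fold (log2 2.24 ± 0.30, adjusted p = 0.00075), a call that held under all 19 alternatives. The interaction was 0.80 ± 0.45 (95% interval -0.19 to 1.79, adjusted p = 1), so a response to both treatments beyond the product of the single ones was not detectable at this depth.

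STAT5B was at 55.0 and 46.4 CPM in untreated cells, 47.8 and 40.9 CPM with interferon, 53.5 and 52.5 CPM with doxycycline, and 44.4 and 55.6 CPM with both treatments. The groups overlapped, apart from interferon against doxycycline. The log2 change with both treatments over untreated cells was -0.02 ± 0.14 (95% interval -0.33 to 0.29, adjusted p = 0.94), and the 4 single-treatment comparisons lay between -0.19 and 0.17 with no call.

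STAT5A thus made up a larger part of the STAT5 reads with both treatments than in any other group. Its share of STAT5A and STAT5B reads was 3.50% (exact Clopper-Pearson 95% interval 2.18 to 5.30) and 2.44% (1.31 to 4.14) in untreated cells and 4.01% (2.47 to 6.12) and 5.73% (3.77 to 8.28) with interferon. On doxycycline alone it was 5.32% (3.75 to 7.29) and 5.36% (3.76 to 7.38), compared to 12.5% (9.76 to 15.7) and 13.4% (10.7 to 16.4) with both treatments. The intervals cover counting error only, and those of the group given both treatments lay above all 6 others. STAT5B reads multiplied by the share of its runs that STAT5A also holds came to 42.9 to 64.3 per library, more than the STAT5A reads of each library outside the group given both treatments. With both treatments that product was 44.1 and 51.4, below the 63 and 79 STAT5A reads, and it was not higher there than with doxycycline (64.3 and 62.0). How much misplaced STAT5B reads contribute to the STAT5A levels was not tested.

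**Figure D3:**
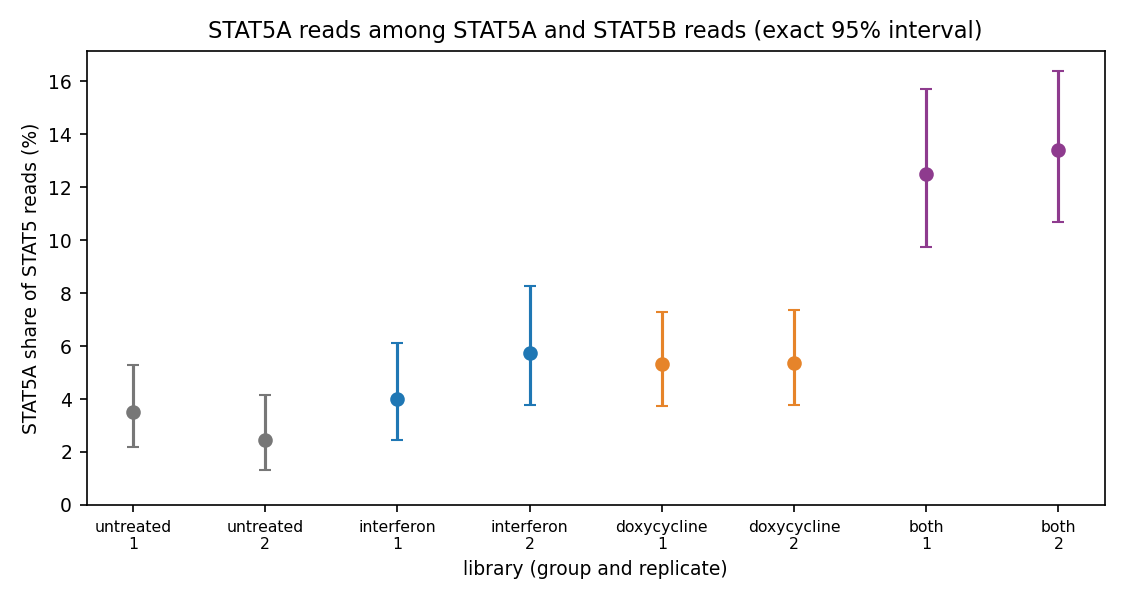
STAT5A reads as a percentage of STAT5A plus STAT5B reads in each library (points), with exact 95% binomial intervals that cover counting error only. The 2 libraries with both treatments are at 12.5% and 13.4%, and the other 6 lie between 2.44% and 5.73%.

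By the same measure of likeness, and again outside the family, the genes nearest to STAT5A were TLR5, GIMAP8, SAMD4A, EFNA1 and IER3. They were at 0.208 to 0.256, while STAT5A spanned 2.70 log2 units. Their distances were longer than those around STAT2, and STAT5A has far fewer reads. TLR5 is the receptor for bacterial flagellin. Doxycycline on top of interferon shifted the 5 by 1.21 (SAMD4A) to 1.84 (EFNA1) log2 units. That likeness to STAT5A follows from how the genes were picked and is no separate result. Of the 4 that had an upstream window, 0 held the ISRE core and 1, SAMD4A, the GAS core.

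STAT4, which transmits interleukin 12 signals in T cells and natural killer cells, was barely detected. Its reads numbered 11 and 4 in untreated cells, 7 and 11 with interferon, 9 and 11 on doxycycline, and 24 and 11 with both treatments. The groups overlapped in CPM except that both libraries given both treatments (2.42 and 1.20 CPM) exceeded the other 6, the highest of which was at 1.05. The log2 change with both treatments over untreated cells was 1.38 ± 0.53 (95% interval 0.21 to 2.55, adjusted p = 0.11), and no comparison called it. At this depth, changes with interferon alone between -0.99 and 1.66 lay within its 95% interval.

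Across the family, then, 4 of 6 members (STAT2, STAT3, STAT5A and STAT6) were called higher with both treatments against untreated cells, beside 7.12% of all genes called higher and 13.9% called in either direction. The interaction called 0 of 6 by edgeR, beside 0.171% of all genes. DESeq2 called 0 of the 4 to which it gave an adjusted p, and gave none to STAT4 and STAT5A. Of all 14601 genes 287 had an unadjusted interaction p under 0.05 by edgeR, a smaller share than p-values without any effect would give. STAT2 was among them, which by itself is no sign of an interaction. Transcript rows of the same gene held nearly the same reads, at least 99.96% of the top row for the 3 rows of STAT3 and 95.82% for the 6 rows of STAT6. Fitted row by row they gave near-identical changes, 2.31 for each of the 2 STAT2 rows with interferon. The rows thus carry no information on separate isoforms.

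**Figure D4:**
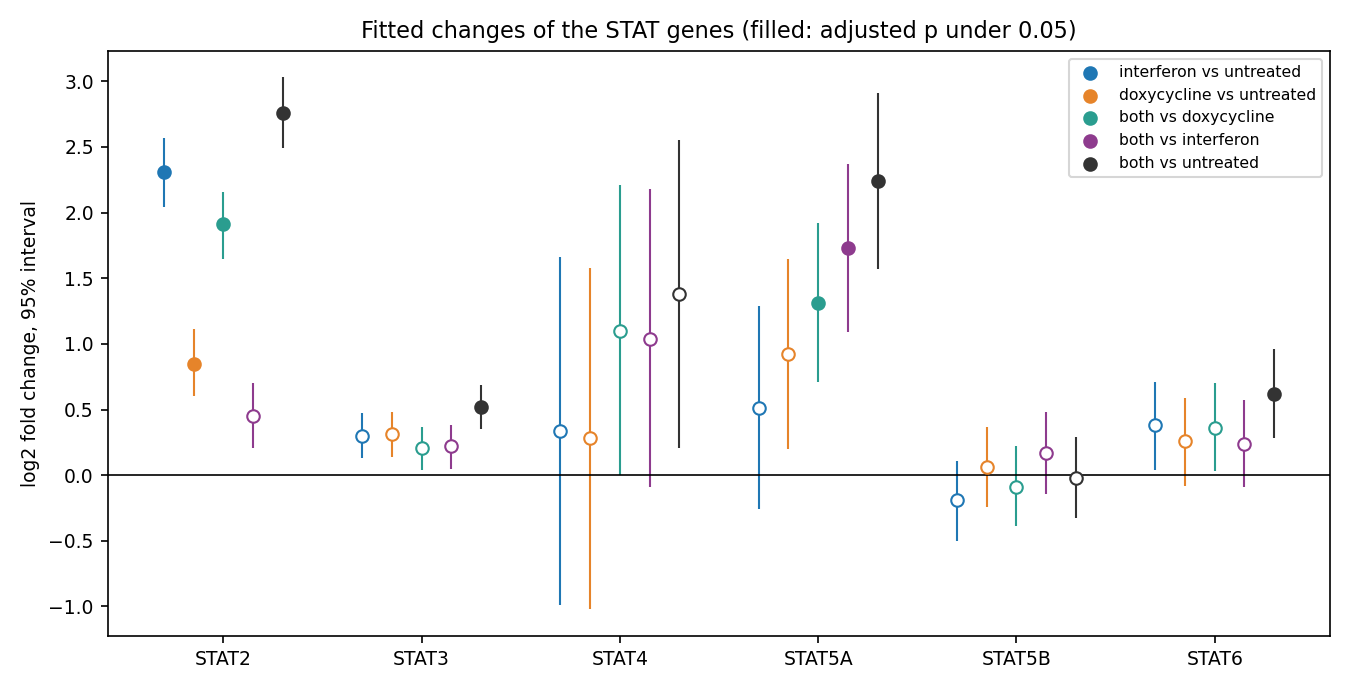
Fitted log2 fold changes (points) with 95% intervals (lines) of the 6 STAT genes in 5 comparisons, from the same edgeR fit, with filled points for adjusted p under 0.05. Filled points are seen for STAT2 in 4 comparisons, STAT5A in 3, and STAT3 and STAT6 in the comparison of both treatments with untreated cells only.

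The genes around the STATs were read from lists of receptors, kinases, partners, inhibitors and targets. The receptor list had 17 tested subunits of STAT-activating receptors. With interferon alone 0 of 17 were called, beside 2.12% of all genes. With the GC and length correction 1 was called higher, beside 410 of all 14601 genes. IFNAR1, a chain of the interferon alpha receptor, was between 48.5 and 62.6 CPM over the 8 libraries, and IFNAR2, its partner chain, between 13.9 and 21.9 CPM. Against untreated cells both treatments raised 6 of 17 and lowered 0, beside 7.12% of all genes called higher. OSMR, a chain of the oncostatin M receptor, rose by 0.98 ± 0.13 log2 units (adjusted p = 0.00073). IL7R, a receptor chain for interleukin 7 that signals through STAT5, rose by 2.27 ± 0.32 (adjusted p = 0.00097) from 1.33 and 1.79 CPM to 8.57 and 6.63 CPM.

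IL6ST (gp130), the shared chain through which interleukin 6 type cytokines reach STAT3, rose by 0.77 ± 0.11 (adjusted p = 0.0013), and IL13RA1, which reaches STAT6, by 0.86 ± 0.11 (adjusted p = 0.00048). These 4 calls against untreated cells held under every alternative. IL6ST stood at 162 and 189 CPM in untreated cells and at 327 and 273 CPM with both treatments. With doxycycline alone 1 of 17 receptors was called higher, IL13RA1 (0.66 ± 0.11, adjusted p = 0.019), beside 0.719% of all genes. It was lost in 6 alternatives, including the fits without untreated replicate 2, doxycycline replicate 1 or either interferon library. Adding interferon to doxycycline raised 2 of 17 receptors, OSMR and IL7R, beside 2.42% of all genes. Each lost its call without any one of the 4 libraries compared. With the GC and length correction 3 of 17 rose, beside 714 of all 14601 genes. Adding doxycycline to interferon raised 2 of 17, IL6ST and IL13RA1, beside 1.07% of all genes. Each lost its call without interferon replicate 1, interferon replicate 2 or replicate 1 of both treatments. With that correction 5 of 17 rose, beside 341 of all 14601 genes.

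All 4 Janus kinases were tested, and 0 of 4 were called in any single-treatment comparison, beside 0.815% to 3.33% of all genes. With the GC and length correction 2 of 4 were called higher on adding interferon to doxycycline, beside 714 of all 14601 genes. On adding doxycycline to interferon 1 of 4 was, beside 341 of all genes. JAK1, which serves both interferon and interleukin 6 receptors, lay between 822 and 1021 CPM in all libraries, and TYK2, its partner at the interferon alpha receptor, between 24.3 and 45.6 CPM. With both treatments over untreated cells JAK1 differed by 0.10 ± 0.10 (adjusted p = 0.52) and TYK2 by -0.46 ± 0.21 (adjusted p = 0.16). JAK3 rose by 1.21 ± 0.22 (adjusted p = 0.0057), from 3.70 and 4.21 CPM to 8.27 and 10.1 CPM. JAK2 rose by 0.89 ± 0.20 (adjusted p = 0.017), a call lost under DESeq2 and without untreated replicate 1, untreated replicate 2 or replicate 1 of both treatments.

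Among 9 partners and co-activators, 3 rose with interferon and 0 fell, beside 1.62% of all genes called higher. IRF9, the DNA-binding partner of STAT2, stood at 5.89 and 6.44 CPM in untreated cells, 71.4 and 59.1 CPM with interferon, 27.8 and 27.7 CPM with doxycycline, and 68.6 and 78.4 CPM with both treatments. Both libraries of each treated group were above untreated cells, while interferon and both treatments overlapped. Interferon alone raised IRF9 by 3.40 ± 0.15 log2 units (adjusted p = 8e-08) and doxycycline alone by 2.17 ± 0.16 (adjusted p = 2.6e-05).

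In doxycycline-treated cells interferon raised IRF9 by 1.41 ± 0.13 (adjusted p = 4.5e-05). The interaction for IRF9 was -1.99 ± 0.20 (adjusted p = 0.0014), a smaller added fold in cells on doxycycline that was called under every alternative. The interaction of STAT2 had the same sign and was not called. PARP14, a co-factor of STAT6, rose with interferon by 2.85 ± 0.11 (adjusted p = 1.5e-08) and with doxycycline by 1.04 ± 0.10 (adjusted p = 0.00028). NMI, which binds STATs and is itself interferon-inducible, rose with interferon by 1.08 ± 0.17 (adjusted p = 0.0044), a call lost without interferon replicate 2 (adjusted p = 0.075).

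Beside 1.62% of all genes called higher with interferon, 1 of 15 tested inhibitors of STAT signalling rose and 0 fell. That was USP18, the protease that binds STAT2 and dampens the interferon receptor, at 8.74 and 7.43 CPM in untreated cells and 52.8 and 62.5 CPM with interferon. The rise was 2.83 ± 0.15 log2 units (adjusted p = 3.9e-07). With doxycycline alone USP18 was at 12.8 and 13.0 CPM (0.67 ± 0.16, adjusted p = 0.11), a difference that passed after the GC and length correction, with the replicate block (adjusted p = 0.022) and without it. SOCS1, an inhibitor of Janus kinases, was at or under 0.98 CPM in every library and CISH, a STAT5 target and inhibitor, at or under 0.19 CPM, and neither passed the filter. SOCS3, the feedback inhibitor driven by STAT3, lay between 2.39 and 6.08 CPM.

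Targets were read from lists of genes known to answer each STAT. All 25 listed ISGF3 targets rose with interferon, beside 1.62% of all genes called higher. Their median log2 change was 4.70, beside -0.01 for all genes tested. The list is made of textbook interferon-induced genes, and it was chosen with earlier results of these libraries known. With doxycycline alone 23 of 25 rose, with a median of 1.84, beside 0.719% of all genes called higher. With the GC and length correction 25 of 25 rose, beside 262 of all 14601 genes. MX1, an antiviral GTPase, went from 8.26 and 6.98 CPM to 899 and 928 CPM with interferon and to 83.9 and 80.1 CPM with doxycycline.

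Doxycycline on top of interferon raised 9 of 25 ISGF3 targets, beside 1.07% of all genes called higher, with a list median of 0.35. The count was 3 without either interferon library, 5 without replicate 1 of both treatments and 14 with the GC and length correction. IFIT2, an antiviral RNA-binding protein, led with 2.30 ± 0.11 log2 units (adjusted p = 7.2e-07), at 83.9 and 89.5 CPM with interferon and 462 and 391 CPM with both treatments. OASL followed with 1.97 ± 0.16 (adjusted p = 6e-05) and RSAD2 with 1.34 ± 0.11 (adjusted p = 0.00011), and all 3 calls held under each alternative. The interaction ran the other way: the fold response to interferon of 14 of 25 targets was called smaller in cells on doxycycline, beside 0.164% of all genes. That of 0 was called larger, with a list median of -1.49. Among them were MX1 (-3.25 ± 0.15, adjusted p = 2.1e-06) and IFI6 (-2.42 ± 0.15, adjusted p = 1.8e-05). These are differences of log2 changes, not of end levels. MX1 was at 899 and 928 CPM with interferon and 1071 and 990 CPM with both treatments. IFI6 was at 28.4 and 23.8 CPM untreated, 158 and 150 on doxycycline, 1642 and 1520 with interferon, and 1748 and 1724 with both. The count was 9 without untreated replicate 1, 7 without untreated replicate 2, 6 without interferon replicate 1, 8 without interferon replicate 2 and 20 with the GC and length correction.

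The target lists of the other STATs gave few calls, and more of them with the GC and length correction. That correction also raised the calls in either direction over all 14601 genes. They went from 310 to 991 with interferon, from 119 to 553 with doxycycline and from 486 to 1464 on adding interferon to doxycycline. On adding doxycycline to interferon they went from 196 to 588, and with both treatments over untreated cells from 2023 to 3151. Of 14 tested STAT3 targets 1 rose with interferon, CEBPB (0.79 ± 0.16, adjusted p = 0.027), a transcription factor whose call was lost without any one of the untreated or interferon libraries, and with the correction 1 fell. With doxycycline 0 of 14 were called, and 2 were called lower with the correction. On adding interferon to doxycycline 0 of 14 were called, against 6 higher and 1 lower with the correction. Of 7 tested STAT5 targets 0 were called with either treatment alone, or when interferon was added to doxycycline. With the correction 1 was higher with interferon, 1 lower with doxycycline and 2 higher when interferon was added to doxycycline. Adding doxycycline to interferon lowered 1 of 7, the growth factor gene IGF1 (-0.93 ± 0.20, adjusted p = 0.047), from 33.0 and 44.3 CPM to 20.9 and 19.8 CPM, a call lost without any one library of those groups. With both treatments over untreated cells 2 of 14 STAT3 targets rose, FOS (1.30 ± 0.28, adjusted p = 0.013) and MCL1 (0.30 ± 0.08, adjusted p = 0.037). Of 7 STAT5 targets 1 rose, ID1 (0.93 ± 0.27, adjusted p = 0.042). Over all genes 7.12% were called higher. With so few genes these counts do not set either list apart from that share, and no set test was run. With the correction 6 STAT3 targets rose and 1 fell, and 2 STAT5 targets rose. FOS lost its call without untreated replicate 2 or replicate 1 of both treatments. MCL1 lost its call in 9 alternatives, among them the correction with and without the replicate block, so it was not among those 6. Its log2 change was as low as 0.15 over all alternatives. ID1 lost its call in 12 alternatives that include leaving out any one library. Of the STAT6 targets 3 and of the STAT4 targets 2 passed the filter, and 0 of either were called in any comparison with the settings used throughout. With the correction, 1 STAT6 target was lower in both treatments over doxycycline and in both over untreated cells. In the latter comparison 1 was also lower with summed rows, and 1 was higher without a filter and without interferon replicate 1, interferon replicate 2, doxycycline replicate 1, doxycycline replicate 2 or replicate 1 of both treatments.

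**Figure D5:**
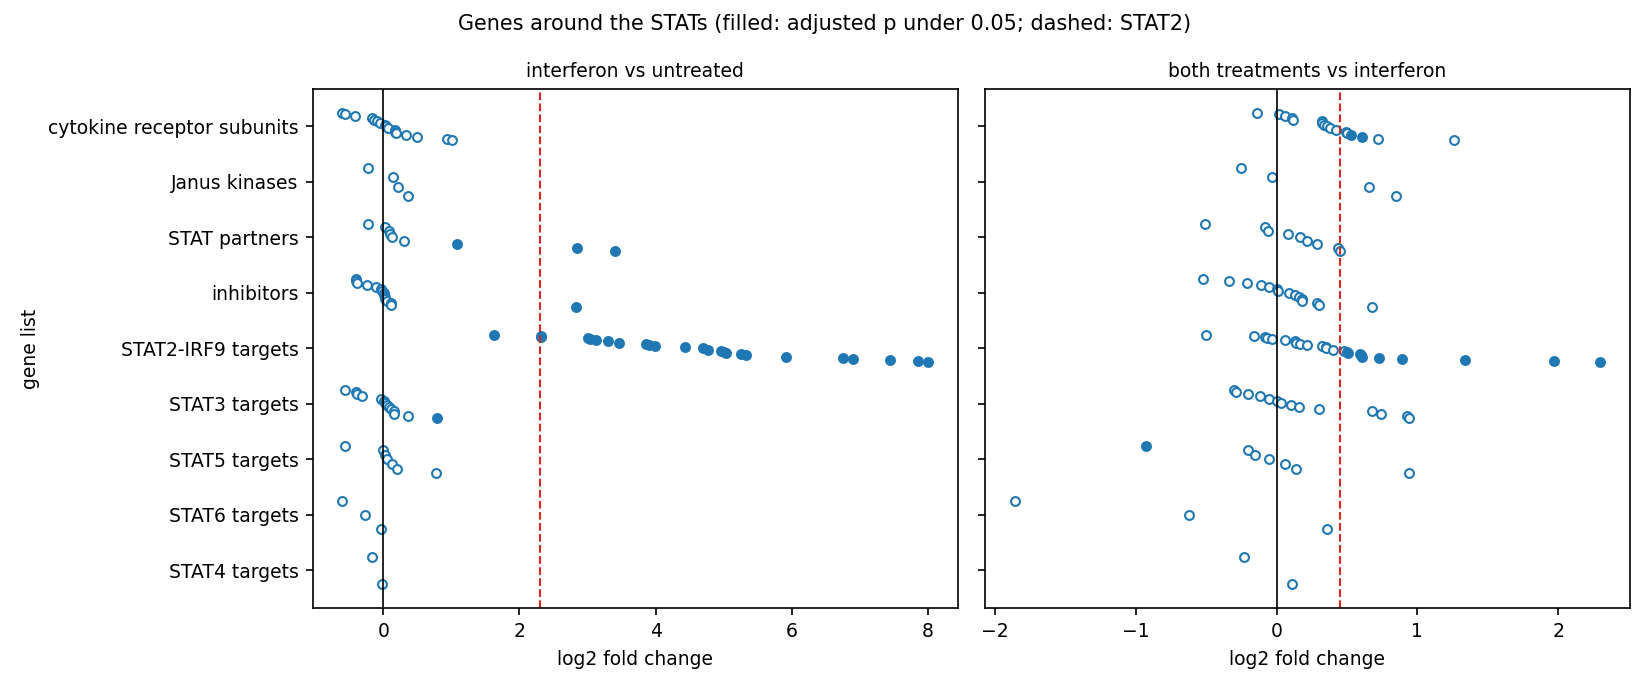
Log2 fold changes of every tested gene in 9 lists around the STATs (points, filled for adjusted p under 0.05), with interferon over untreated cells on the left and both treatments over interferon on the right, each panel with its own axis. The dashed line marks STAT2 (2.31 and 0.45), and on the left all 25 ISGF3 targets are filled, with 3 partners, 1 inhibitor and 1 STAT3 target.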

How the data were processed

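RNA sequencing counts were analysed for 8 libraries in 4 groups of 2. Trizol extraction and a stranded total RNA kit are given per the labels' protocols. The table deposited by the authors holds raw read counts for 34917 transcript rows. The submitters' processing notes name hg19, edgeR and CASAVA 1.8.2 without saying what each did. The aligner, the counting method and its use of strand are not given in the sources at hand.

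The row with the highest total was kept per symbol (30.36% of symbols had several), because rows of 1 gene mostly repeat the same reads. Counts were tested in R 4.3.3 with edgeR 4.0.16 by its quasi-likelihood test, normalised by trimmed mean of M values (factors 0.977 to 1.026), the default low-count filter and 1 mean per group over all 8 libraries (4 residual degrees of freedom, prior 6.87). P-values were Benjamini-Hochberg adjusted over 14601 genes. Each SE is the size of the log2 fold change over the root of F. CPM used effective library sizes, and levels per kilobase used matched GENCODE v29 transcript lengths. A floor is 3 reads, and 95% Clopper-Pearson intervals reflect counting error alone, because reads that carry no molecular identifiers are not independent molecules. Alternatives were relative log expression factors, DESeq2 1.42.0, other filters, only the groups compared, a replicate block, a loess correction for GC content and length (known for 98.3% of tested genes), other row choices, and leaving out each library, with a lone library assumed to vary like the rest. The scripts were tested on simulated data.

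The members and lists were chosen with earlier results of these data known. Named genes were the members, USP6, up to 4 genes of smallest p per list and comparison, IRF9, JAK1, TYK2, SOCS1, SOCS3, CISH and USP18. Also named were the 5 genes, with STATs left out, nearest to each member called in a single-treatment comparison. IFNAR1, IFNAR2, ISG15 and IFIT1 were chosen after their values were seen. Alternatives for list genes were added after seeing the data. Sequences are from RefSeq (GRCh38.p14) and GENCODE, a build other than that of the counts. A gene is left out of the text and kept in the tests.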

Additional observations from a re-analysis of the deposited data

How the results depend on the processing

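With 2 libraries a group, calls near the threshold moved with the fit. The number of STAT genes called with interferon went from 1 to 3 under the GC content and length correction and to 3 when the replicate block was added. With doxycycline it went from 1 to 2 and 3 in the same fits. Under the correction without the block, STAT2, STAT5A and STAT6 were called for both treatments over doxycycline. For both treatments over doxycycline it went from 2 to 1 under DESeq2, 1 under the replicate block and 4 under the block with the correction, and to between 1 and 2 over the fits leaving out 1 library. For both over interferon it went from 1 to 2 under DESeq2, without a filter, in only the groups compared and under the correction, 3 with the block added, and between 0 and 2 leaving out 1 library. For the interaction it was 0 throughout, and for both over untreated the main value was 4. Over all alternatives 678 member values were recomputed, and 622 kept direction and call, 10 lost and 18 gained a call, and 20 turned sign, none of them called. A further 8, of STAT4 and STAT5A, kept direction and had no adjusted p in DESeq2. Libraries of equal number deviated together between untreated and interferon (correlation 0.34) and between doxycycline and both (0.45), but oppositely between groups that differ in doxycycline (-0.12 to -0.35), and no label says what a number marks, so the replicate block is no paired result. With the numbers crossed for doxycycline, added after seeing the data, 3, 3, 4, 3, 0 and 4 members were called in the comparisons as ordered above, and 1117, 1252, 1864, 1497, 53 and 4734 genes. Those crossed gene counts are not part of the ranges over all genes given further on. Leaving out 1 library, the uncalled log2 changes of STAT4 spanned -0.24 to 1.27 (interferon), -0.32 to 1.21 (doxycycline) and -0.16 to 1.37 (interaction). Those of STAT5B spanned -0.07 to 0.19 (doxycycline), -0.24 to 0.09 (both over doxycycline), 0.00 to 0.33 (both over interferon), -0.05 to 0.28 (interaction) and -0.19 to 0.14 (both over untreated). The STAT6 interaction spanned -0.25 to 0.20, and was 0.00 with relative log expression factors, DESeq2 or the stricter filter, 0.01 with the correction, with or without the block, and 0.02 with summed rows. JAK1 in both over untreated was -0.02 with the correction and -0.01 with the block added. Counts over all genes moved too: with interferon from 310 to between 174 and 1098, with doxycycline from 119 to between 54 and 779, for both over doxycycline from 486 to between 290 and 1644, for both over interferon from 196 to between 46 and 778, and for both over untreated from 2023 to between 712 and 3397. The cause was not tested. Depth limits STAT4 and STAT5A, at 4 to 79 reads per library.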

Other observations

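The genes beside STAT2 on chromosome 12 were read after the values of STAT2 were seen. Here and below, neighbours are the nearest protein-coding genes whose symbols matched tested genes, so other genes may lie between. IL23A, a subunit of interleukin 23, was at 0.66 and 0.72 CPM in untreated cells and 2.92 and 1.74 CPM with both treatments (log2 1.75, adjusted p = 0.025 by edgeR's quasi-likelihood test). APOF, an apolipoprotein gene on the other side, went from 0.38 and 0.18 CPM to 1.71 and 1.41 CPM (log2 2.45, adjusted p = 0.012). Both are low, and in untreated cells APOF is near or under the 3-read floor. The next genes out did not pass the test, PAN2 at 0.36 (adjusted p = 0.15) and TIMELESS at -0.27 (adjusted p = 0.18), each at over 80 CPM in every library.

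STAT5B, STAT5A and STAT3 lie in that order beside each other on chromosome 17. With both treatments over untreated cells their log2 changes were -0.02, 2.24 and 0.52. The nearest genes with a matched symbol outside these, GHDC and ATP6V0A1, were at -0.04 (adjusted p = 0.94) and -0.02 (adjusted p = 0.94). Beside STAT6, NAB2 was at -0.20 (adjusted p = 0.46) and LRP1 at -0.04 (adjusted p = 0.94).

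Of the partners, SMARCA4, a chromatin remodelling ATPase, was the 1 that was lower with both treatments than in untreated cells (log2 -0.73 ± 0.18, adjusted p = 0.023), at 119 and 103 CPM against 52.2 and 81.6 CPM. It is named after its value was seen. The call was lost without untreated replicate 1, untreated replicate 2, interferon replicate 1, interferon replicate 2 or replicate 1 of both treatments.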
